A study of Mus musculus with 4 samples.

Results

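The genes described here handle iron and break down heme. From the textbook biology of macrophage iron 9 were chosen by name, with earlier results of these data known. The array gave 22180 mouse genes a feature of their own, and all 9 were found, each with 1 feature. They are the transferrin receptor gene Tfrc, the divalent metal transporter genes Slc11a2 and Slc11a1, the ferritin heavy chain gene Fth1, the iron exporter gene Slc40a1, the iron sensor gene Ireb2, the siderophore-binding lipocalin gene Lcn2, the haptoglobin gene Hp and the heme oxygenase gene Hmox1. RNA came from bone marrow derived macrophages, the phagocytes grown from marrow cells, here for 6 days with L-cell supernatant as the source of growth factor. Every culture had then received 100 ng/ml of lipopolysaccharide (LPS), the bacterial cell wall component sensed by Toll-like receptor 4, for 2 hours. The control genotype was PP2ACαfl/fl, with exon 1 of Ppp2ca, the gene of a catalytic subunit of the phosphatase PP2A, floxed and no Cre, and the knockout genotype was PP2ACαfl/fl;lyM-Cre, with the same floxed alleles and a Cre that deletes that exon in myeloid cells. There were 2 arrays per genotype, called biological replicates in the labels. The strain, the age and sex of the mice, and whether the replicates were separate mice are not given in the sources used here, so p-values measure only the spread between these arrays, part of which may be technical. No array without LPS was analysed, so the comparison is of genotypes in stimulated cells and not of the response to LPS.

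Macrophages take in iron bound to transferrin through the transferrin receptor and recover iron from the heme of the red cells they engulf. Heme oxygenase opens the heme ring and frees iron, carbon monoxide and biliverdin; the iron is stored in ferritin or leaves the cell through ferroportin, the product of Slc40a1. The iron regulatory proteins bind hairpins in messenger RNAs when iron is scarce, which stabilises Tfrc and some Slc11a2 transcripts and holds back translation of Fth1 and Slc40a1 transcripts. In infection macrophages are known to hold iron back from microbes, and Lcn2 and Slc11a1 belong to this defence.

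The differences were small. In knockout macrophages Lcn2 rose 1.50-fold and Tfrc fell 1.50-fold, and the other 7 genes did not pass the test (limma across 12542 genes, with an adjusted p below 0.05 needed to pass). The count of 2 in 9 stands beside 6.79% of all tested genes, with 1 member higher against 3.30% of tested genes and 1 lower against 3.49%. Apart from Lcn2, all 8 had a lower mean in knockout, as did 6103 of all 12542 tested genes. Their differences ran from -0.59 to -0.07 log2 units, and the median over the 9 genes was -0.16, against 0.01 over all tested genes. A log2 unit is a doubling. The arrays of the genotypes did not overlap for 7 of the 9 genes, against 55.3% of tested genes, and 5 of the 9 had an unadjusted p under 0.05 in limma, against 24.7%. The 9 were chosen with earlier results of these data known, so these shares give context and do not test the group. In RNA from whole cultures, fewer cells of a type and less RNA per cell cannot be told apart.

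**Figure D1:**
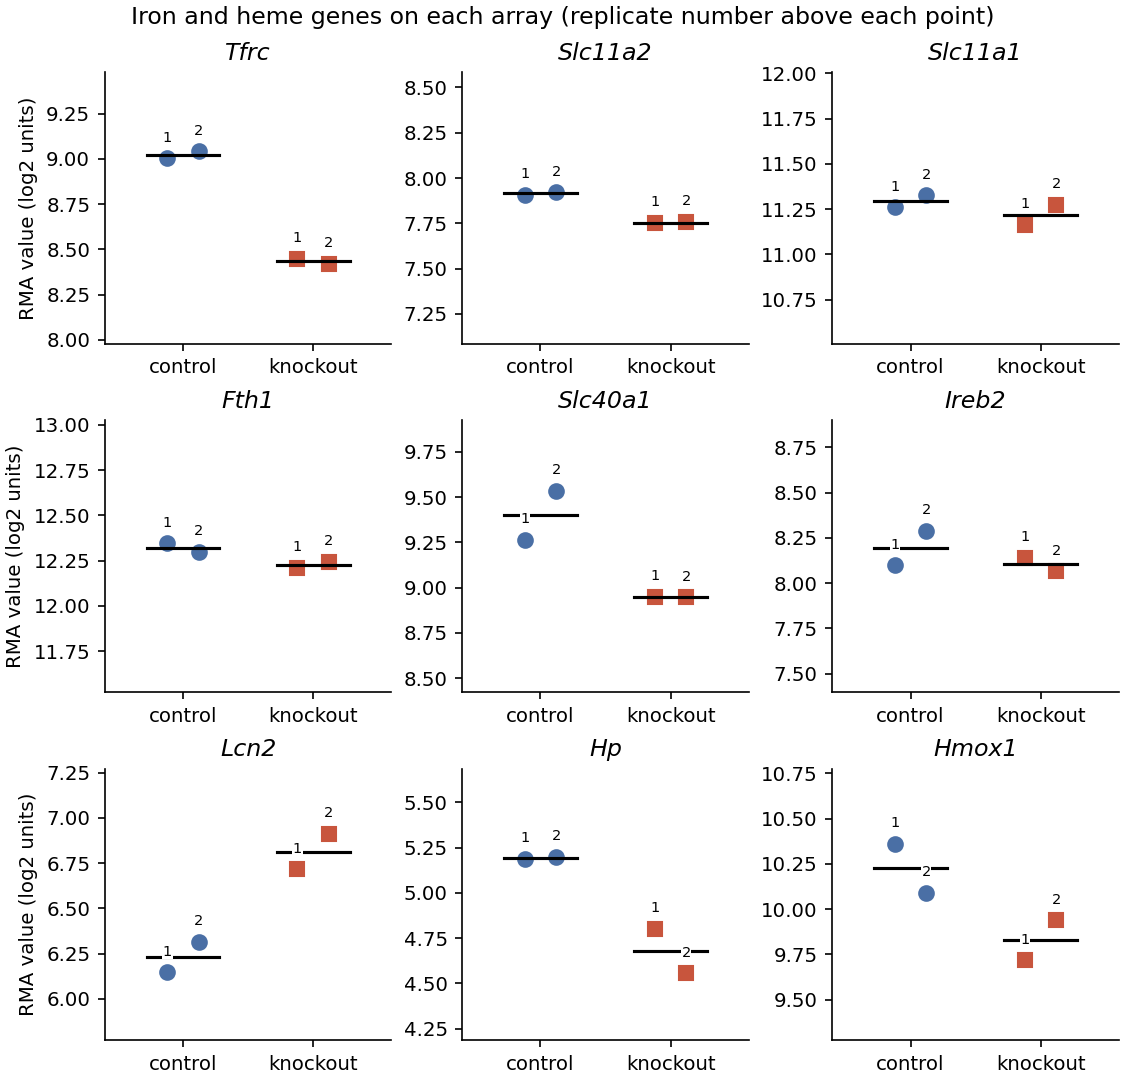
The value of each of the 9 genes on each of the 4 arrays, in log2 units of the deposited values, with control as circles, knockout as squares, replicate numbers above the points and black bars at the group means. Each panel has its own axis position and the same height of scale; the arrays of the genotypes overlap for Slc11a1 and Ireb2 and are apart for the other 7 genes.

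Lcn2 and Tfrc, the genes that passed, are shown with the sequence just upstream of their starts, where transcription factors act on a promoter. The first and second lines give 250 bases before an annotated start from RefSeq, build GRCm38.p6, read 5′ to 3′ along the gene, and the last gives 30 bases around the first annotated Tfrc start. Of the 9 genes, 5 had an entry: Lcn2, Slc11a1, Tfrc, Fth1 and Ireb2. Slc40a1, Slc11a2, Hmox1 and Hp had none. Capitals mark matches, on either strand, to 1 of 6 short patterns searched: GGNNNTTCC (NF-kB), TTGCNNAA (C/EBP), TTCNNNGAA (STAT), GAAANNGAA (IRF), ACGTG (HIF) and TGACG (CREB).
Lcn2, chr2:32387740-32387989, minus strand: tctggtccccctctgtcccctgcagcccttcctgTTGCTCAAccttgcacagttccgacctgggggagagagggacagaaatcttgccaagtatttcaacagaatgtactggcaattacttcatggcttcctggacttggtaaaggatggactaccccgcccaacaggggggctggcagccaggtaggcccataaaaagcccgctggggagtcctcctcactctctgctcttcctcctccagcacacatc
Tfrc, chr16:32608646-32608895, plus strand: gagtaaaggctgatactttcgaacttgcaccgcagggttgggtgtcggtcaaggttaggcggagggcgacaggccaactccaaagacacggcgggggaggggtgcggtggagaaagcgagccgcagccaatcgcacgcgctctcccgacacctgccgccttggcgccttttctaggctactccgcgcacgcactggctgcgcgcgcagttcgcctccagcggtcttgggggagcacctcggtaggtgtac
Tfrc, chr16:32608889-32608918, plus strand: ggtgtACGTGcggaaggaagTGACGtagat
The Lcn2 stretch held 1 match, to the C/EBP letters, which 9.56% of 32851 RefSeq promoter stretches of 250 bases also held. Among genes that did not pass, the C/EBP letters matched 2 times before the second Fth1 start. The NF-kB letters matched 1 time before Slc11a1. The stretches before the first Fth1 start and before Ireb2 held no match. The 250 bases before the first Tfrc start held no match to any of the 6 patterns. The 30 bases at that start, which lie before a second annotated Tfrc start, held the HIF letters, found in 16.6% of stretches, and the CREB letters, found in 17.8%. The NF-kB letters, found in 15.7% of stretches, matched once before the second Tfrc start and not before that of Lcn2; the STAT letters were in 7.02% and the IRF letters in 7.13%. The marked matches do not overlap one another, and a match is a match of letters only.

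Before the members, the genotype was checked. The brightest of 3 Ppp2ca features read 8.25 and 7.59 on the control arrays and 4.36 and 3.39 on the knockout arrays, a difference of -4.04 log2 units (SE 0.36, limma adjusted p = 0.0076). The next feature differed by -2.24, from 5.31 to 3.07, and the last, dim in both genotypes, by -0.12; where their probes lie relative to exon 1 was not analysed here. Lyz2, the lysozyme gene whose locus carries Cre in the widely used myeloid line, fell by 5.19. Control cells had no Cre, so Cre, the fall of Lyz2 and the fall of Ppp2ca cannot be told apart in this comparison. All 8 macrophage markers were measured and tested, among them Adgre1, Csf1r and Cd68. Their mean level was between 10.67 and 10.75 log2 units in control and 10.88 and 10.89 in knockout. Fcgr1 rose by 0.94, 1 in 8 against 3.30% of all tested genes, and the other 7 did not pass. The array medians lay between 3.50 and 3.57, and pairs of arrays correlated across features at 0.986 to 0.990. Only 2 arrays per genotype limit the precision. Values of different features are not comparable as amounts, so no order of levels among the genes is given.

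Tfrc brings iron into the cell by carrying transferrin through endosomes. It read 9.003 and 9.041 log2 units on the control arrays and 8.449 and 8.419 on the knockout arrays. Both knockout arrays were below both controls, and arrays of one genotype were within 0.04 log2 units of each other. The means were 9.02 ± 0.03 in control and 8.43 ± 0.02 in knockout (SD, n = 2 each), a difference of -0.59 (SE 0.08, 95% interval -0.80 to -0.38, limma adjusted p = 0.023). This was the only one of the 9 genes past the 1.5-fold cutoff on group means that the series' design text uses, which 5.24% of tested genes passed. The call was lost in 8 of 15 other fits, with adjusted p of 0.083 to 0.16 when any 1 of the 4 arrays was left out. Over all 15 the adjusted p was 0.0018 to 0.16 and the difference stayed between -0.63 and -0.57.

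Among all tested genes, those with the pattern nearest to Tfrc over the 4 arrays, by Euclidean distance between gene-centred log2 values, were Ccnd1, the cyclin D1 gene, at a distance of 0.02 log2 units, the G protein subunit gene Gng12 at 0.03 and the glycolytic enzyme gene Pgk1 at 0.04. Their differences were -0.60, -0.58 and -0.63. With 4 arrays such likeness says that the genes fell by alike amounts with little spread.

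The 2 members of the Slc11 family transport divalent metals with protons. Slc11a2 (DMT1) releases transferrin-borne iron from endosomes. It read 7.91 and 7.92 in control and 7.75 and 7.76 in knockout. The arrays were apart, by a small step of -0.16 (95% interval -0.37 to 0.05, limma adjusted p = 0.30), which did not pass. Slc11a1 (NRAMP1), which pumps metal out of the phagosome and is known for its part in resistance to intracellular bacteria, read 11.26 and 11.33 in control and 11.16 and 11.28 in knockout. Its arrays overlapped between genotypes, and the difference of -0.07 (95% interval -0.30 to 0.16, adjusted p = 0.68) did not pass; it ranged from -0.13 to -0.02 when 1 array was left out. Whether the differences of the transporters are themselves unequal was not tested.

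Fth1 encodes the ferritin subunit that oxidises iron for storage. It read 12.35 and 12.30 in control and 12.21 and 12.24 in knockout. The difference was -0.09 (95% interval -0.31 to 0.12, limma adjusted p = 0.55) and did not pass, although both knockout arrays were the lower ones. Ferritin genes have processed pseudogenes, whose transcripts the feature may also read.

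Slc40a1, the gene of ferroportin, the exporter of cellular iron, read 9.26 and 9.54 in control and 8.95 and 8.95 in knockout. The knockout arrays agreed closely and were both lower, and the control arrays were 0.27 log2 units apart. Its means of 9.40 ± 0.19 and 8.95 ± 0.002 (SD, n = 2 each) differed by -0.45 (SE 0.12, 95% interval -0.74 to -0.16). The limma adjusted p of 0.085 missed the threshold; it was 0.039 when only genes with a mean of at least 5 log2 units were tested and 0.021 with the variance modelled along intensity. The size rested on the control arrays, at -0.59 without control replicate 1 and -0.32 without control replicate 2.

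Ireb2 encodes iron regulatory protein IRP2, which is degraded when iron is plentiful. It read 8.10 and 8.29 in control and 8.14 and 8.06 in knockout. The genotypes overlapped, and the difference of -0.09 (95% interval -0.35 to 0.17, limma adjusted p = 0.64) did not pass. The sensor is controlled mainly as a protein, which arrays do not measure.

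Lcn2 encodes lipocalin 2, a secreted protein that binds bacterial siderophores and so keeps iron from bacteria. It read 6.15 and 6.31 log2 units in control and 6.72 and 6.91 in knockout. Both knockout arrays were above both controls, and the gap between the nearest arrays was larger than the distance within either genotype. The means of 6.23 ± 0.12 and 6.81 ± 0.14 (SD, n = 2 each) differed by 0.58 (SE 0.11, 95% interval 0.30 to 0.87, limma adjusted p = 0.045), just short of the 1.5-fold cutoff. By p-value Lcn2 was number 794 of the 852 genes that passed. The call was lost in 8 of 15 other fits, the same number as for Tfrc, with adjusted p of 0.093 to 0.22 when any 1 array was left out. Over all 15 the adjusted p was 0.017 to 0.27 and the difference 0.49 to 0.68. The genes nearest to its pattern were Pld6, a mitochondrial phospholipase gene, at a distance of 0.03, Etl4 at 0.04 and the nonsense-mediated decay gene Upf2 at 0.05, with differences of 0.56, 0.62 and 0.54.

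Hp encodes haptoglobin, the plasma protein that captures free hemoglobin, made mainly by hepatocytes and also by myeloid cells. It read 5.19 and 5.20 in control and 4.802 and 4.556 in knockout. Both knockout arrays were lower, and they were 0.25 log2 units apart, a distance not seen between the controls. The means of 5.19 ± 0.01 and 4.68 ± 0.17 (SD, n = 2 each) differed by -0.52 (SE 0.11, 95% interval -0.80 to -0.24), and the limma adjusted p of 0.057 missed the threshold, passing at 0.049 when each array was centred on its median.

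Hmox1, the inducible heme oxygenase gene and a known target of the stress factor NRF2, read 10.36 and 10.09 in control and 9.72 and 9.94 in knockout. Both knockout arrays were lower, and each genotype spread by more than 0.2 log2 units. The means of 10.23 ± 0.19 and 9.83 ± 0.16 (SD, n = 2 each) differed by -0.40 (SE 0.13, 95% interval -0.73 to -0.06), and the limma adjusted p of 0.15 did not pass; it passed in none of the 15 other fits, where it was 0.053 to 0.43. Without control replicate 1 the difference was -0.26 and without control replicate 2 it was -0.53.

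**Figure D2:**
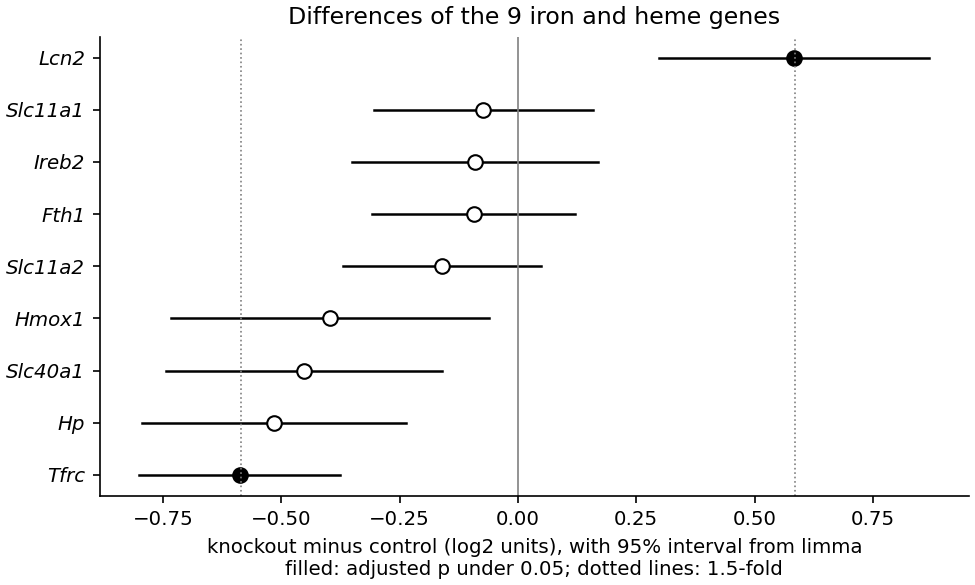
The difference between knockout and control for each of the 9 genes, in log2 units, as points with limma 95% intervals for a single gene; filled points passed at an adjusted p below 0.05 and dotted lines mark 1.5-fold. Lcn2 lies to the right at 0.58 and Tfrc farthest to the left at -0.59, and the intervals of Hp, Slc40a1 and Hmox1 leave out 0 although these genes did not pass after adjustment.

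Other genes of iron and heme were read from 4 textbook lists that leave out the 9 genes above and were also chosen with earlier results known. Of 65 listed genes 58 had a feature of their own and 49 were bright enough to be tested; 2 fell, against 3.49% of all tested genes, and 0 rose, against 3.30%, and the median was -0.02. Those that fell were Alas1 and Slc48a1. Alas1, the housekeeping enzyme of the first and rate-limiting step of heme synthesis, read 9.56 and 9.53 in control and 8.69 and 8.61 in knockout. All arrays of a genotype lay within 0.08 log2 units of each other, and the difference was -0.89 (SE 0.09, limma adjusted p = 0.0093), or 1.86-fold. Slc48a1, which carries heme from the phagolysosome to the cytosol, read 10.32 and 10.30 in control and 9.83 and 9.76 in knockout, a difference of -0.52 (SE 0.09, adjusted p = 0.033). Neither call held with 1 array left out, where the adjusted p was 0.052 to 0.076 for Alas1 and 0.094 to 0.20 for Slc48a1, while the differences stayed between -0.93 and -0.85 and between -0.55 and -0.48.

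In the list of iron uptake, storage, export and sensing, 17 genes were tested and none passed by limma. Of the 17, 2 had an unadjusted p under 0.05, against 24.7% of all tested genes, and the median difference was 0.05. Hfe, whose product binds the transferrin receptor and is mutated in hereditary hemochromatosis, differed by 0.53 (adjusted p = 0.056), with 7.07 and 7.23 in control and 7.78 and 7.58 in knockout; it passed with the stricter filter and with the intensity trend. Slc39a14, a zinc and iron importer, differed by -0.34 (adjusted p = 0.090). Aco1, the gene of the other iron regulatory protein, IRP1, differed by -0.22, Fbxl5, the ubiquitin ligase adaptor that removes IRP2, by 0.04, the ferritin autophagy receptor gene Ncoa4 by -0.02, and the ferroxidase gene Cp by 0.08. Ferritin light chain (Ftl1) and transferrin (Trf) were not analysed here, having no feature with a single symbol in the annotation used.

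Of 11 tested genes of heme capture, transport, breakdown and its control, 10 besides Slc48a1 did not pass. Heme oxygenase 2 (Hmox2), the constitutive form, differed by 0.19 (limma adjusted p = 0.33), and the biliverdin reductases Blvra and Blvrb, which act after heme oxygenase, both differed by -0.19. Bach1, the heme-binding repressor of Hmox1, differed by 0.17 and Nfe2l2, the gene of NRF2, by -0.24 (adjusted p = 0.20). The transporter gene Abcg2 differed by 0.21. Besides Alas1, 6 genes of heme synthesis were tested and none passed by limma, with 0 at an unadjusted p under 0.05; Ppox at 0.29 and Urod at 0.24 were the farthest from 0. Of 14 tested genes of iron-sulfur cluster assembly none passed by limma, with a median of -0.09. An unadjusted p under 0.05 was found for 2 of the 14, against 24.7% of all tested genes. Glrx5 differed by -0.33 and Cisd1, which encodes an iron-sulfur protein of the mitochondrial surface, by -0.28.

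**Figure D3:**
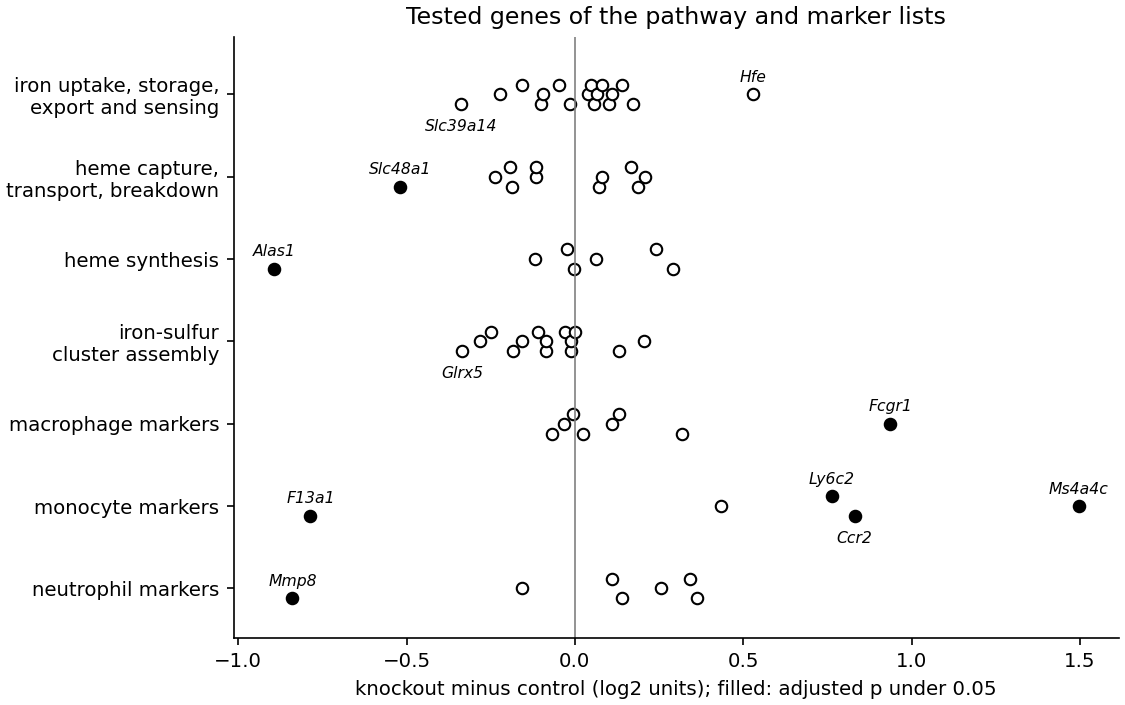
Differences between knockout and control, in log2 units, for the tested genes of the pathway lists and of the macrophage, monocyte and neutrophil marker lists, each point a gene and filled where the adjusted p was below 0.05. In the pathway lists Alas1 at -0.89 and Slc48a1 at -0.52 are the filled points, and the monocyte markers run from -0.79 to 1.50.

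Lcn2 and Hp are also products of neutrophils and monocytes, so markers of these cells are set beside them. Of 13 neutrophil and precursor markers 7 were bright enough to be tested. Of these 1 passed, Mmp8, which fell by 0.84, and 3.49% of all tested genes fell. Of the 7, 5 had a higher mean in knockout, as did 6436 of all 12542 tested genes, and the median difference was 0.14. Ltf, the gene of the iron-binding granule protein lactoferrin, differed by 0.34 with arrays apart (limma adjusted p = 0.083). Cxcr2 differed by 0.36 with arrays overlapping (adjusted p = 0.31). Mpo differed by 0.26, Ngp by 0.14, S100a9 by 0.11 and Prtn3 by -0.16, and none of them passed. The mean level over the list was 3.93 to 3.95 log2 units in control and 3.99 to 4.0003 in knockout. Ly6g, Camp, Elane, Ctsg, Retnlg and S100a8 lay below the level of 3.53 needed for testing. Of 5 monocyte markers measured 3 rose, against 3.30% of all tested genes: Ccr2 by 0.83, Ly6c2 by 0.76 and Ms4a4c by 1.50. F13a1 fell by 0.79, 1 in 5 against 3.49% of all tested genes, and Cx3cr1 differed by 0.43. The mean level over this list was 6.86 to 6.92 in control and 7.41 to 7.46 in knockout. The part of neutrophil and monocyte genes in the rise of Lcn2 and in the lower values of Hp was not tested. Of 5 erythroid markers measured 1 was tested, Epor, which differed by 0.09 and did not pass, and the mean level was 3.0002 to 3.21 over the 4 arrays. Of 4 hepatocyte markers 2 were tested and none passed by limma, with 0 at an unadjusted p under 0.05, and the mean level was 3.73 to 4.01.

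**Figure D4:**
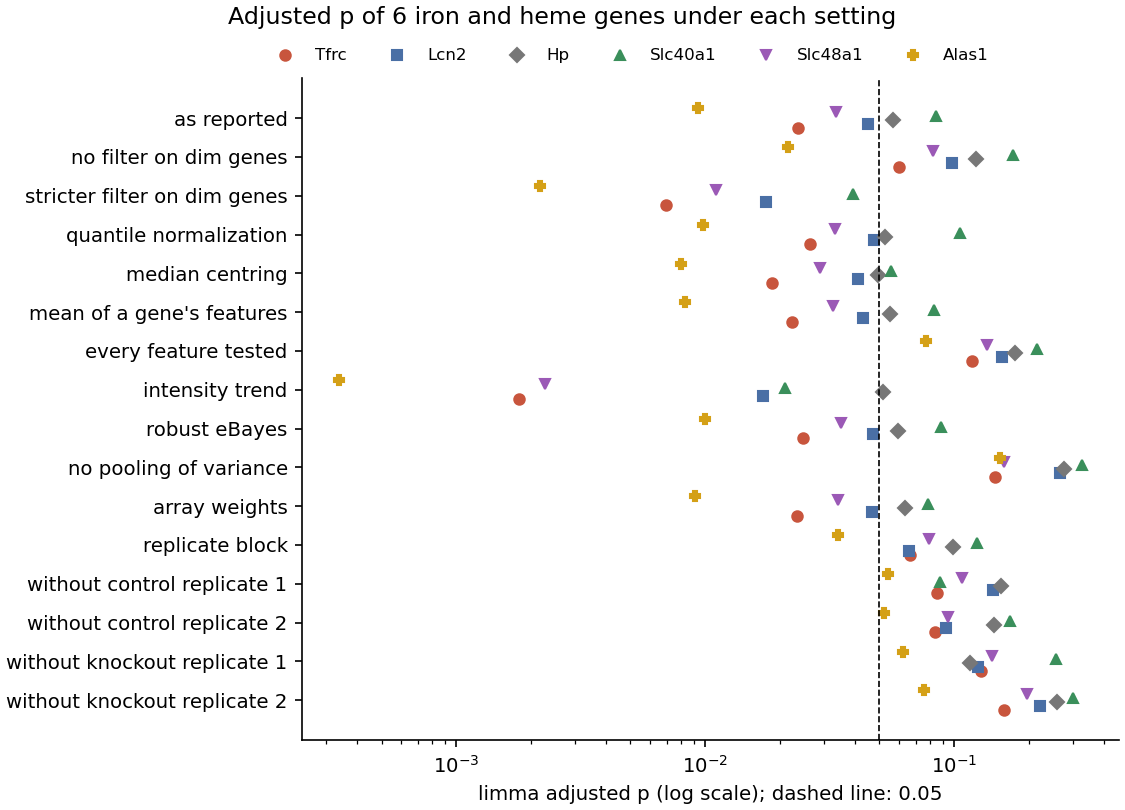
The limma adjusted p, on a log scale, of Tfrc, Lcn2, Hp, Slc40a1, Slc48a1 and Alas1 in the reported fit and in 15 others (14 for Hp, which the stricter filter leaves out), with a dashed line at 0.05. Points to the left of the line passed; no gene of the 6 is to the left of it in any of the 4 fits that leave out an array, and Alas1 stays left of it in 9 of the 15 others.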

How the data were processed

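The table held log2 values for 41345 features on 4 arrays. These deposited log2 values came from RMA as run by the authors (background adjustment, normalization, log transformation), per the series' design text; RMA and oligo stand in the submitters' processing notes, and no version, probe build or annotation is given in the sources used here. Normalization between arrays removes changes of total RNA per cell.

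Features were named from the platform annotation: 23521 had 1 symbol, 1814 several and 16010 no annotation row. Gene IDs of 23328 matched RefSeq (GRCm38.p6), changing 0 symbols. The feature with the highest mean stood for a gene, and 12542 of 22180 genes whose mean reached 3.53, the median over features, were tested. Groups came from the sample titles. Knockout was compared with control by limma 3.58.1 in R 4.3.3 (lmFit, eBayes with constant prior variance, no block), two-sided, with Benjamini-Hochberg adjustment over tested genes and a threshold of 0.05. Intervals cover 95% for a single gene. The median residual SD was 0.10 log2 units.

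The genes and lists were chosen with earlier results of these data known. Named were the 9 genes, the genotype checks, list and marker genes that passed, the 2 farthest from 0 in each pathway list among those that did not pass, a set of well-known iron and heme genes, and the 3 nearest in pattern to each of the 9 that passed; further markers are named as examples, some after their values were seen. In simulated data on 12542 genes with 200 of them changed, the test found 18.2% of genes with a 1.5-fold change and 81.4% with a 2-fold change. Of the simulated calls 5.53% were false. How far these shares hold for the measured data, where 852 genes passed, was not tested. Alternatives changed the filter, normalization, feature choice, variance model, array weights, replicate block, arrays and call rule.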

Additional observations from a re-analysis of the deposited data

How the results depend on the processing

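Of the 9 iron and heme genes, the 2 that passed became 0 with no filter on dim genes and with every feature tested. The same held without pooling variance and with the replicate block. In these fits 3 to 5 of the 9 had an unadjusted p under 0.05 in limma. Neither call held when any 1 array was left out. Over all genes, an unadjusted p under 0.05 in limma was reached by 3422 of 22180 with no filter. With every feature tested it was reached by 3641 of 20673 features. Of 12542 genes, 2295 reached it without pooling and 2840 with the replicate block. The 1.5-fold cutoff gave 1 of the 9 iron and heme genes. Lcn2 and Tfrc passed together under median centring, quantile normalization, the stricter filter, averaging of features, the intensity trend, robust eBayes and array weights, joined by Slc40a1 under the stricter filter and the trend and by Hp under median centring. No gene that passed turned direction in any of these fits. Ireb2, which did not pass, was at 0.00 without control replicate 2. Of the pathway list genes, 2 of 49 passed as reported, 1 of 58 with no filter and 5 of 42 with the stricter filter. With that filter Hfe was higher, and Glrx5 and Slc39a14 joined the lower ones. Of all tested genes, 852 of 12542 passed as reported, 333 of 22180 with no filter and 1475 of 8694 with the stricter filter. With every feature tested 0 of 51 in the lists passed. With the intensity trend 4 of 49 passed, against 1584 of all 12542 tested genes. Under the trend Hfe was higher, with Glrx5 joining the lower ones. Without pooling 0 of 49 passed, with the replicate block 1 of 49, and none when any 1 array was left out. Over all genes, 852 passed as reported, 333 with no filter, 1475 with the stricter filter, 15 with every feature tested, 1584 with the intensity trend, 0 without pooling (2295 at an unadjusted p under 0.05), 312 with the replicate block and 96 to 174 without each array in turn. Fits without an array leave 1 residual degree of freedom and take the lone array to vary like the other genotype's. Same-numbered arrays deviated from their group means with a correlation of -0.04 across genes, so the replicate numbers were not taken as pairs; with the replicate block the adjusted p was 0.066 for both Lcn2 and Tfrc and 0.079 for Slc48a1, while Alas1 passed at 0.034. The cause of the changed calls was not tested. At 2 arrays per genotype, changes near 1.5-fold were mostly missed in simulation with 200 of 12542 genes changed. Whether any lost call was a missed change was not tested.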

Other observations

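Several genes of systemic iron and heme control were too dim to be tested, with means below 3.53 log2 units, and are given as values. Hamp, the gene of the iron hormone hepcidin, which binds and removes ferroportin, read 2.20 and 2.13 in control and 2.39 and 2.54 in knockout. Cd163, the receptor for haptoglobin-hemoglobin complexes, read 3.49 and 3.25 in control and 3.21 and 2.95 in knockout. Tfr2, the second transferrin receptor gene, read 3.48 and 2.96 against 2.95 and 3.04, and Steap4, a metalloreductase gene, 2.90 and 3.20 against 3.13 and 3.09. Tfr2 and Steap4 overlapped between genotypes, as did Hamp2, Heph, Cybrd1, Flvcr2 and Iba57, the other list genes too dim to be tested. Hamp and Cd163 did not overlap, which also held for 55.3% of all tested genes. None lay clearly above the dim features of the array.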
